A study of Mus musculus with 2 samples.

Results

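The 10 genes *Ly6c2*, *F13a1*, *Mrc1*, *Cd163*, *Folr2*, *Arg1*, *Apoe*, *Trem2*, *Gpnmb* and *Fn1*, of 31053 genes in the count matrices, mark the arrival of monocytes in tissue, the macrophages that live there and the states linked to repair. They were matched by symbol and read as raw UMIs, which count captured transcripts rather than PCR copies. Single-cell RNA-seq (10x 3′ v3) gave 1 control library and 1 library of ligature-induced periodontitis (LIP), in which a thread tied around a tooth inflames the gum. Each library pooled live cells from 5 wild-type (WT) C57BL/6 mice aged 8 weeks. Cells were digested from gingiva and scrapings of the alveolar bone surface, 7 days after ligature placement for LIP and with no treatment for the control. With 1 library of pooled mice per group, neither group had a replicate, so no p-value is given. All intervals are 95% intervals, exact except for pairs of genes, and cover counting error only, not the spread between mice.

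Blood monocytes enter inflamed tissue through *Ccr2* and differentiate there, whereas resident macrophages are maintained locally and carry scavenger and uptake receptors. Macrophages that clear debris and lipid after injury turn on lipid-handling and matrix genes, and in gingiva all these cells lie beside Langerhans cells, dendritic cells and the osteoclasts of the bone surface. Among the genes described here, *Ly6c2* encodes a surface protein of classical monocytes and *F13a1* the A subunit of coagulation factor XIII. *Mrc1* encodes the mannose receptor CD206, *Cd163* the receptor for haptoglobin-hemoglobin complexes and *Folr2* a folate receptor. *Arg1* encodes the arginine-degrading enzyme arginase, *Apoe* a lipid carrier, *Trem2* a receptor for lipids, *Gpnmb* a glycoprotein of lysosome-rich cells and *Fn1* the matrix protein fibronectin.

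The 250 bases before the transcription start are shown for *Ly6c2* and *F13a1*, which were found together in cells. They are also shown for *Mrc1*, which was not found with *Ly6c2* in any macrophage-like cell. *Trem2* is shown too, as it was found in every macrophage-like cell with *Arg1*. Each sequence is RefSeq, build GRCm38.p6, written 5′ to 3′ on the strand of the gene, and was available for 8 of the 10 genes. The starts used can differ from those of the gene spans given below, and the *Mrc1* window reaches 22 bases into its span. Capitals mark every match, on both strands, to GAGGAA (the PU box), TTNNGNAA (C/EBP) or TGANTCA (AP-1).
Ly6c2, minus strand, chr15:75111972-75112221: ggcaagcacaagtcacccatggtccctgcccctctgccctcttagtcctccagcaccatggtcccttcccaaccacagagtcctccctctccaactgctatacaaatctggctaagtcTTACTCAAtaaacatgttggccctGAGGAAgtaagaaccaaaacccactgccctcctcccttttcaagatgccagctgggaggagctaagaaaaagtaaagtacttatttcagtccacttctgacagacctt
F13a1, minus strand, chr13:37050245-37050494: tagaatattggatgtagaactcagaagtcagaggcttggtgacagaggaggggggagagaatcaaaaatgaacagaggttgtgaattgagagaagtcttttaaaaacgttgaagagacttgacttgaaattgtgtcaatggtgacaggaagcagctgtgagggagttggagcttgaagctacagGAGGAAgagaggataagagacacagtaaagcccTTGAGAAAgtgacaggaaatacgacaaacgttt
Mrc1, plus strand, chr2:14229164-14229413: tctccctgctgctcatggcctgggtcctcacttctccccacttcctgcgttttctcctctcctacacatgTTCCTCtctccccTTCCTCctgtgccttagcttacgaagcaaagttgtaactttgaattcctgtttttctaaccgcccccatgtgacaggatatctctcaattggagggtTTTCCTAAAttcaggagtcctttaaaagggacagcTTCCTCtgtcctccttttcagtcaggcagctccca
Trem2, plus strand, chr17:48346151-48346400: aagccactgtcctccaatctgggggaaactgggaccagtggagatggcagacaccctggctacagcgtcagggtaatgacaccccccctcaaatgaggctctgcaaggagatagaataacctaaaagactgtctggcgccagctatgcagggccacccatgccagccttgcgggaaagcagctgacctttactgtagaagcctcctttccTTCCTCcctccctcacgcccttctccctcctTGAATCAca
The PU box was matched in each of these 4 windows and in that of *Apoe*, against 23.4% of 32536 windows of the same length. The C/EBP letters were matched for *Ly6c2*, *F13a1*, *Mrc1*, *Cd163* and *Gpnmb*, against 36.8% of all windows, and the AP-1 letters for *Trem2*, against 6.73%. In *Mrc1* the 2 C/EBP matches overlapped, and the AP-1 match in *Trem2* was the same site on both strands. These are matches of letters, not binding sites. *Arg1* and *Fn1* are named only.

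The genes lie apart in the genome (GRCm38), apart from *Ly6c2*, whose near-identical neighbour *Ly6c1* is on the same chromosome. *Ly6c2* spans chr15:75108158-75111970, *F13a1* chr13:36867178-37050244, *Mrc1* chr2:14229392-14332057, *Cd163* chr6:124304656-124330527 and *Folr2* chr7:101839988-101857194. *Arg1* spans chr10:24915221-24927484, *Apoe* chr7:19696109-19699188, *Trem2* chr17:48346401-48354147, *Gpnmb* chr6:49036546-49070929 and *Fn1* chr1:71585520-71653200.

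After the quality limits 936 LIP and 883 control cells were kept, with 10560109 and 13407122 UMIs, and 2 barcodes occurred in both libraries. Macrophage-like cells, a cluster formed without the 10 genes and named from 12 other markers such as *Csf1r* and *C1qb*, numbered 80 of 936 in LIP (8.55%, 6.84 to 10.5) and 41 of 883 in control (4.64%, 3.35 to 6.25). Their median depths were 16960 UMIs in LIP and 13665 in control. All 12 macrophage markers were found in both libraries, at a summed 5564 CPM (UMIs per 1000000 UMIs) in LIP and 5628 in control. The class also held genes of other cell types, and these differed between the libraries. The summed neutrophil markers were at 1238 CPM in LIP against 199 in control, the osteoclast markers at 1195 against 81.5, the Langerhans markers at 863 against 3058 and the dendritic markers at 241 against 887. Of the 6 mast cell markers, only *Kit* was found in LIP (19.1 CPM), and all 6 were found in control (1163 CPM), mostly in 2 cells of 1442 and 2963 UMIs. In LIP, 2 cells of 53597 and 49756 UMIs held 238 and 610 of the 1814 UMIs of osteoclast markers.

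Clustered again without the 10 genes, the macrophage-like cells formed 3 sub-clusters, which are called here by their leading genes. The Chil3-led cells (16 LIP, 9 control) were led by *Chil3*, *Ifitm6*, *Gm9733*, *Mgst1*, *Mmp8*, *Ccdc88c*, *Smpdl3a*, *Pi16* and *Ms4a4c* besides *Ly6c2* itself. UMIs of *Ccr2* were found in 23 of these 25 cells, and *C1qa*, *C1qb* and *C1qc* in none. The Saa3-led cells (33 LIP, 2 control) were led by *Saa3*, *Cxcl3*, *Arg1*, *Spp1*, *Ccl5*, *Pdpn*, *Timp1*, *Acod1*, *Inhba* and *Il1rn*. Those of LIP held 1247 of the 1879 neutrophil-marker UMIs of the class in LIP. These were at 2151 CPM, against 887 in the Chil3-led and 595 in the Mfge8-led cells of LIP. A single gene of the list gave 1085 of the 2151 CPM. In the same order, *S100a8* was at 443, 135 and 109 CPM and *S100a9* at 309, 203 and 185 CPM. *Retnlg* was not higher in the Saa3-led cells, at 10.3, 11.9 and 13.1 CPM. The Saa3-led LIP cells also held 741 of the 1814 osteoclast-marker UMIs of the class. Of these 741, 652 were of the osteoclast marker *Acp5*, found in 23 of the 33 cells. The Mfge8-led cells (31 LIP, 30 control) were led by *Mfge8*, *Epcam*, *Klrd1*, *H2-DMb2*, *Hpgds*, *Mgl2*, *H2-Eb1*, *Tbc1d4*, *Gpr183* and *Ccnd1*. They mixed C1q-bearing cells (*C1qa* in 21 of 61) with cells bearing the Langerhans gene *Cd207* (14 of 61), *Epcam* (16 of 61) or the dendritic genes *Flt3* (29 of 61) and *Cd209a* (24 of 61). The Saa3-led cells made up 41.3% of the class in LIP and 4.88% in control, and the Mfge8-led cells 38.8% and 73.2%, so different cells held most of the class in the 2 libraries. At a lower resolution only 2 sub-clusters formed, of 87 and 34 cells, and the second was again led by *Saa3*.

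Summed over macrophage-like cells, *Arg1*, *Gpnmb*, *Trem2* and *Fn1* were at least 2-fold higher in LIP, and *Mrc1* and *Apoe* at least 2-fold lower. Thus 4 of the 8 genes with at least 50 UMIs in the class were higher, where 8.03% of 4931 genes were, and 2 of 8 were lower, where 3.49% were. *Cd163* and *Folr2* had fewer UMIs than this minimum. *Arg1*, *Gpnmb* and *Trem2* reached it only through LIP, with 0, 1 and 26 UMIs in control. The genes were chosen with earlier results of these data known, so these counts are descriptive only. *Ly6c2* and *F13a1* changed by less than 2-fold. *F13a1* was not confined to cells with *Ly6c2*, as 128 of its 239 control UMIs were in 3 cells without *Ly6c2*.

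**Figure D1:**
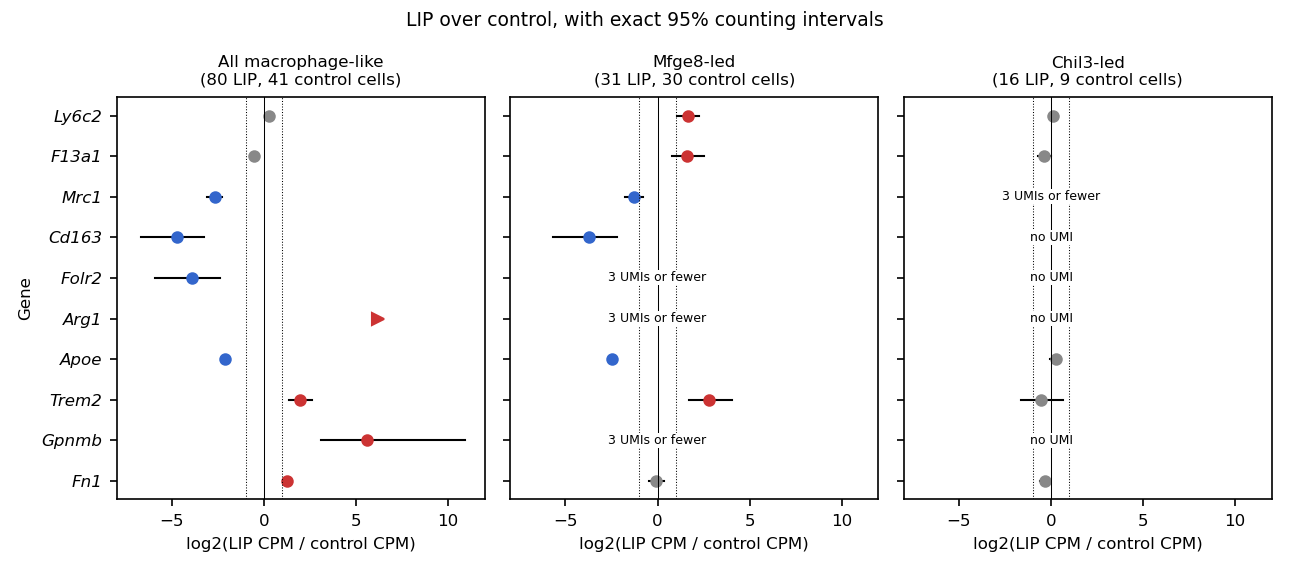
LIP over control for each gene on a log2 scale of CPM, for all macrophage-like cells and for the Mfge8-led and Chil3-led cells, with exact 95% counting intervals as bars. Red points are at least 2-fold higher in LIP, blue at least 2-fold lower and grey between, dotted lines mark 2-fold, and the triangle is a lower bound. *Arg1*, *Gpnmb*, *Trem2* and *Fn1* lie to the right and *Mrc1*, *Cd163*, *Folr2* and *Apoe* to the left in the whole class, while none of the 4 genes with at least 50 UMIs in the Chil3-led cells passes 2-fold there.

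The monocyte gene *Ly6c2* was at 422 CPM (389 to 455) in LIP and 345 CPM (299 to 396) in control, a log2 ratio of 0.29 (0.06 to 0.53). It was found in 32 of 80 LIP cells and 13 of 41 control cells, with 1 to 114 UMIs per positive cell in LIP and 1 to 44 in control. The ranges overlapped, and at 1000 UMIs per cell the shares were 17.7% (10.0 to 27.9) of 79 cells and 22.5% (10.8 to 38.5) of 40 cells. In epithelial-like cells, which should lack the gene and are deeper (medians of 29154 and 28968 UMIs), 1 of 78 and 3 of 205 cells had a UMI. *F13a1* was at 287 CPM (261 to 315) in LIP and 414 CPM (363 to 470) in control, a log2 ratio of -0.53 (-0.76 to -0.30). It was found in 44 of 80 LIP cells (55.0%) and 13 of 41 control cells (31.7%). At 1000 UMIs per cell it was found in 17 of 79 and 8 of 40 cells, while epithelial-like cells had *F13a1* in 0 of 78 and 1 of 205. A larger share of LIP cells thus held *F13a1* before the depth was equalized, but the summed level was lower in LIP, and 2 control cells alone held 53 and 66 of the 239 control UMIs.

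Most *Ly6c2* UMIs of the class were in the Chil3-led cells (612 of 839, 72.9%). There it was found in 13 of 16 LIP and 9 of 9 control cells, at 1763 CPM in LIP and 1617 CPM in control (log2 ratio 0.12, -0.13 to 0.39). *F13a1* in these cells was at 780 CPM in LIP and 1005 CPM in control (-0.37, -0.72 to -0.01), and *Fn1* at 1456 and 1857 CPM (-0.35, -0.61 to -0.09). Only *Ly6c2*, *F13a1*, *Apoe* and *Fn1* reached 50 UMIs in the Chil3-led cells, and none of these 4 passed 2-fold, where 6.79% of 1060 genes were at least 2-fold higher in LIP and 1.7% at least 2-fold lower. The Chil3-led cells were 16 of the 80 cells of the class in LIP (interval 11.9% to 30.4%) and 9 of 41 in control (10.6% to 37.6%).

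Outside the Chil3-led cells, *Ly6c2* differed more. In the Mfge8-led cells *Ly6c2* was at 210 CPM in LIP, from 6 of 31 cells with 1 to 69 UMIs each, and at 67.2 CPM in control, from 4 of 30 cells with 1 to 16 UMIs each, a log2 ratio of 1.64 (1.07 to 2.26). *F13a1* differed in the same direction there (102 against 33.6 CPM, log2 interval 0.78 to 2.51), and both were past 2-fold also without the cells rich in mast or osteoclast markers. The same 3 LIP cells held 27, 40 and 69 of the 144 *Ly6c2* UMIs and 14, 23 and 29 of the 70 *F13a1* UMIs. Both differences thus rested largely on these 3 cells. Over the Mfge8-led cells 3 of 6 genes tested were at least 2-fold higher, where 6.57% of 3122 genes were. These 3 (*Ly6c2*, *F13a1* and *Trem2*) reached the minimum of UMIs only through LIP, with 30, 15 and 8 UMIs in control. The count of 3 of 6 is therefore descriptive only. At least 2-fold lower were 2 of 6 (*Mrc1* and *Apoe*), where 2.63% were. Neither *Mrc1* (-0.45) nor *Apoe* (-0.70) was 2-fold lower without the 1 control cell with *Folr2*, and *F13a1* then stood at 102 against 14.4 CPM (2.83, 1.63 to 4.32). In the Saa3-led cells of LIP, 13 of 33 cells held *Ly6c2*, with a median of 2 UMIs, against a median of 23 in the positive Chil3-led cells of LIP.

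**Figure D2:**
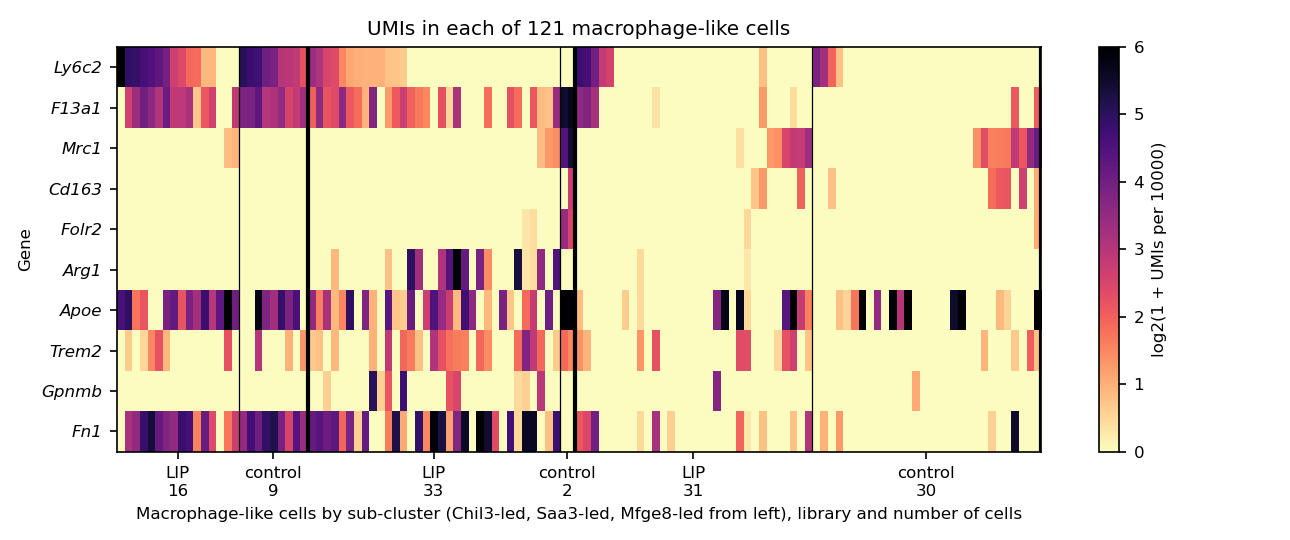
UMIs of each gene in each macrophage-like cell, as log2(1 + UMIs per 10000), with 1 column per cell and cells ordered by sub-cluster and library, then by *Ly6c2* minus *Mrc1*, *Cd163* and *Folr2*, and values above 6 in the colour of 6. *Ly6c2* fills most of the Chil3-led cells on the left, and *Arg1* and *Gpnmb* lie mainly in part of the Saa3-led cells of LIP (15 and 10 of 33). *Mrc1*, *Cd163* and *Folr2* lie in cells without *Ly6c2* apart from 2 cells.

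Summed over the class, the resident macrophage genes were lower in LIP, with most of their control UMIs in few cells. *Mrc1* was at 48.1 CPM (37.7 to 60.5) in LIP, from 73 UMIs in 12 of 80 cells, and at 305 CPM (262 to 354) in control, from 176 UMIs in 11 of 41 cells, a log2 ratio of -2.67 (-3.08 to -2.26). Positive cells held 1 to 28 UMIs in LIP and 3 to 47 in control, so the ranges overlapped. *Cd163* had 4 UMIs in 3 LIP cells and 40 UMIs in 7 control cells, 2.63 against 69.3 CPM (-4.72, -6.66 to -3.25). *Folr2* had 4 UMIs in 3 LIP cells and 23 UMIs in 3 control cells, 2.63 against 39.9 CPM (-3.92, -5.91 to -2.37). Each LIP cell with either gene held 1 or 2 UMIs of it, and the 3 LIP cells with *Folr2* held 0 *Mrc1* UMIs. Neither gene had a UMI in the 78 LIP epithelial-like cells.

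Few control cells carried this pattern. The 3 control cells with *Folr2* held 23 of its 23 UMIs, 123 of 176 *Mrc1* UMIs (69.9%), 1468 of 2085 *Apoe* UMIs (70.4%), 128 of 239 *F13a1* UMIs (53.6%) and 214 of 407 UMIs of the complement gene *C1qa*, with 9.46% of all UMIs of the class. The first held 3 *Folr2*, 47 *Mrc1*, 9 *F13a1* and 1228 *Apoe* UMIs, the second 5, 45, 53 and 64, and the last 15, 31, 66 and 176. All 3 had *Trem2* (2, 2 and 4 UMIs), and none had *Ly6c2*, *Arg1*, *Gpnmb* or *Fn1*. The latter 2 were the control cells of the Saa3-led sub-cluster, but they held 0 UMIs of *Saa3*, *Spp1* and *Arg1*. Without these 3 cells, which were picked after their values were seen, *Mrc1* was at 101 CPM in control (log2 ratio -1.08), *Apoe* at 1181 CPM (-0.50) and *F13a1* at 212 CPM (0.43), so that *Apoe* no longer passed 2-fold and *F13a1* turned to the other side.

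*Cd163* lay mostly in other cells. Of its 40 control UMIs, 30 were in 4 cells with 5, 8, 8 and 9 UMIs, which also held 4, 5, 5 and 6 UMIs of *Mrc1* and 0 of *Folr2*, *F13a1*, *Ly6c2* and *C1qa*. *Apoe* had at most 2 UMIs in them. The same 4 cells held 44, 28, 51 and 24 UMIs of *Cd209a*, a lectin gene of dendritic cells and some macrophages, and 36, 20, 32 and 31 of *Mgl2*, another lectin gene. In the 3 control cells with *Folr2*, *Cd163* had 3, 6 and 0 UMIs, so it was not confined to these 4 cells. The control cells with *Mrc1* therefore included cells with *Folr2*, *Apoe*, *F13a1* and C1q genes and cells with *Cd163* and *Cd209a* but no *Folr2*. This grouping was noticed in the values and rests on 7 cells.

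In the Mfge8-led cells *Mrc1* was at 93.1 CPM in LIP and 224 CPM in control (-1.27, -1.74 to -0.80), and without its 1 control cell with *Folr2* the control level was 127 CPM (-0.45, -0.99 to 0.11). *Cd163* stood at 5.82 against 76.1 CPM there (-3.71, -5.67 to -2.22) and at 74.2 CPM in control without that cell (-3.67). The Langerhans and dendritic markers listed above also differed between the libraries, and their part in these ratios was not tested.

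Genes linked to repair split into 2 patterns. *Arg1* had 576 UMIs in 17 of 80 LIP cells (379 CPM, 349 to 412) and 0 UMIs in 41 control cells, which by a limit of 3 counts allows up to 7.32% of cells with a UMI. Set against a floor of 3 counts over the control cells, it was at least 73.0-fold higher in LIP. The positive cells held 1 to 172 UMIs with a median of 12, so a few cells carried most of it, and the top cell held 29.9%. *Gpnmb* had 129 UMIs in 11 LIP cells (85.0 CPM, 70.9 to 101) and 1 UMI in 1 control cell (1.73 CPM), a log2 ratio of 5.62 (3.11 to 10.9). *Trem2* was at 176 CPM (155 to 198) in LIP, in 36 of 80 cells with 1 to 53 UMIs, and at 45.1 CPM (29.4 to 66.0) in control, in 9 of 41 cells with 1 to 9 UMIs, a log2 ratio of 1.96 (1.38 to 2.60). *Fn1* was at 1149 CPM (1096 to 1205) in LIP, in 52 of 80 cells, and at 480 CPM (425 to 540) in control, in 13 of 41 cells (1.26, 1.08 to 1.45). For each of the 4 the per-cell ranges overlapped wherever control cells had UMIs.

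At 1000 UMIs per cell the shares were 8.86% against 0% for *Arg1*, 5.06% against 0% for *Gpnmb*, 13.9% against 2 of 40 cells for *Trem2* and 38.0% against 8 of 40 cells for *Fn1*. Lymphoid-like cells, at medians of 6147 and 4864 UMIs, had *Arg1* in 6.52% and 1.96% of cells before and 0% and 0.490% after thinning, *Gpnmb* in 0% and 0.980%, and *Fn1* in 4.35% and 1.96%. Epithelial-like cells had *Trem2* in 2 of 78 LIP and 0 of 205 control cells. The single control UMI of *Gpnmb* cannot be told apart from that background.

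*Arg1* and *Gpnmb* were almost wholly in the Saa3-led cells, which held 99.5% and 98.5% of their UMIs in the class. *Arg1* was found in 15 of 33 of these LIP cells, with a median of 25 UMIs in the positive cells, and *Gpnmb* in 10 of 33. Neither had a UMI in the Chil3-led cells. *Arg1* in the Mfge8-led cells came to 3 UMIs, all in the 2 LIP cells rich in osteoclast markers. *Fn1* was spread more widely, at 2075 CPM over the Saa3-led cells, 1574 over the Chil3-led and 181 over the Mfge8-led cells. Its level in the last 2 did not pass 2-fold between the libraries. In the Mfge8-led cells of control, however, a single cell held 79 of the 83 *Fn1* UMIs, and 4 of 30 cells had any. In those of LIP the 122 *Fn1* UMIs were in 11 of 31 cells, with at most 41 in a cell. *Trem2* was at 279, 89.9 and 81.1 CPM over the same 3 sub-clusters. In the Mfge8-led cells *Trem2* was at 122 CPM in LIP and 17.9 CPM in control (2.77, 1.73 to 4.03), and 28 of its 84 LIP UMIs were in the 2 cells rich in osteoclast markers. Without those cells and the 2 mast-marker cells of control the log2 ratio was 2.41 (1.33 to 3.69).

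Without all Saa3-led cells, only *Trem2* of the 10 genes was at least 2-fold higher in LIP, *Mrc1* and *Apoe* were at least 2-fold lower, and *F13a1* turned to the other side (0.38). Without the Mfge8-led cells, which left 11 control cells, *Arg1* and *Gpnmb* were higher and *Ly6c2* (-1.12), *F13a1* (-1.96), *Mrc1* and *Apoe* lower. The ratios of *Ly6c2*, *F13a1*, *Trem2* and *Fn1* in the class therefore depended on which sub-clusters were summed. Neutrophil and osteoclast markers were also higher in LIP, and their part in these ratios was not tested.

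Summed over the class, *Apoe* went the other way from the remaining repair genes. It was at 835 CPM (790 to 882) in LIP, in 50 of 80 cells, and at 3614 CPM (3460 to 3772) in control, in 21 of 41 cells, a log2 ratio of -2.11 (-2.22 to -2.01). At 1000 UMIs per cell the shares of cells with *Apoe* were close (32.9%, 22.7 to 44.4, against 32.5%, 18.6 to 49.1). A single control cell held 1228 of the 2085 control UMIs (58.9%), and without the top cell of each library the log2 ratio was -1.19. Without the 3 control cells with *Folr2* it did not pass 2-fold. In the Chil3-led cells *Apoe* was at 1655 CPM in LIP and 1397 CPM in control (0.24, -0.03 to 0.53). Lymphoid-like cells, the background also used for *Arg1*, *Gpnmb* and *Fn1*, had *Apoe* at 117 CPM in LIP and 256 CPM in control. The B-like cells among them had it at 390 and 360 CPM. How much of the *Apoe* in macrophage-like cells was such background was not tested.

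*Ly6c2* and the resident genes were found in separate cells at equal depth, while cells with *F13a1* and either of them were found. Cells were thinned to 5000 UMIs each, which left 75 LIP and 34 control cells, and the number with both genes was compared with the number given by the product of their shares. *Ly6c2* was found in 26 LIP cells and at least 1 of *Mrc1*, *Cd163* and *Folr2* in 6, and no cell held both, where 2.08 were given by the product. In control 10 cells held *Ly6c2*, 10 a resident gene and 0 both, where 2.94 were given. The ratio to the product, which was taken as fixed, had an interval of 0 to 1.77 in LIP and 0 to 1.25 in control, both including 1. Over both libraries it was 0 to 0.698. In LIP the share of cells with a resident gene was 0% (0 to 13.2) among *Ly6c2* cells and 12.2% (4.63 to 24.8) among the others, so the intervals overlapped. In control it was 0% (0 to 30.8) against 41.7% (22.1 to 63.4). Over both libraries it was 0% (0 to 9.74) of 36 *Ly6c2* cells against 21.9% (13.1 to 33.1) of 73 other cells, and these intervals did not overlap. Pooled libraries or sub-clusters that differ in the shares of these genes can by themselves give such a departure.

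With all UMIs, 45 of 121 cells held *Ly6c2* and 29 a resident gene, and 2 cells held both, where 10.8 were given by the product. Both cells were Mfge8-led. The control cell held 4 *Ly6c2* and 1 *Cd163* UMIs, and the LIP cell 1 *Ly6c2*, 2 *F13a1* and 2 *Cd163* UMIs. *Mrc1* (249 UMIs in the class) and *Folr2* (27 UMIs) had 0 UMIs in the 45 *Ly6c2* cells, although these cells held 31.4% of all UMIs of the class. They were shallower, with a median of 13536 UMIs against 19381 in the remaining cells. Within single sub-clusters too few cells held these genes to show a departure from the product. With all UMIs 0 cells held both where 1.76 were given in the Chil3-led cells, 0 where 2.60 were given in the Saa3-led cells and 2 where 3.28 were given in the Mfge8-led cells, and each interval of the ratio included 1.

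Cells with both *F13a1* and a resident gene were found. At 5000 UMIs, 3 LIP cells held both where 2.72 were given, and 4 control cells where 3.53 were given. With all UMIs 11 cells held both where 13.7 were given. At 2000 UMIs the count was 0 in LIP where 1.96 were given and 2 over both libraries where 4.83 were given, and without the 3 control cells with *Folr2* it was 1 in control where 2.03 were given, at 5000 UMIs. *F13a1* was also found with *Ly6c2*, in 26 cells at 5000 UMIs where 15.2 were given, a ratio of 1.71 (1.12 to 2.51). Of the 36 *Ly6c2* cells 72.2% held *F13a1*, against 27.4% of the other 73. *F13a1* therefore occurred both in cells with *Ly6c2* and in the *Mrc1*, *Folr2* and *Apoe* cells of control.

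**Figure D3:**
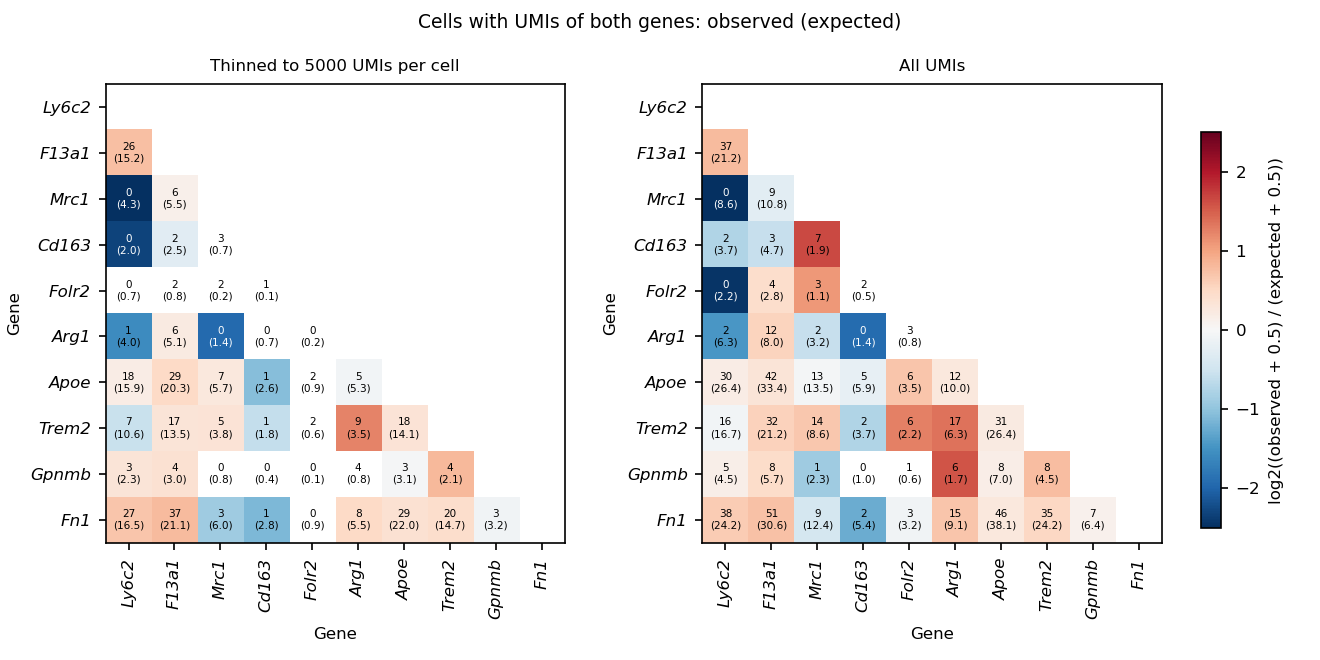
Number of macrophage-like cells of both libraries with UMIs of both genes of a pair, with the number given by the product of the shares in brackets, at 5000 UMIs per cell (left) and with all UMIs (right). Colour is the log2 ratio with 0.5 added to both, left white where under 1 cell was given. *Ly6c2* with *Mrc1* is 0 in both panels, against 26 and 37 cells for *Ly6c2* with *F13a1*.

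Other pairs showed which genes kept company. *Fn1* was found with *F13a1* in 37 cells where 21.1 were given (1.75, 1.23 to 2.42) and with *Ly6c2* in 27 where 16.5 were given (1.64, 1.08 to 2.38). *Arg1* was found with *Trem2* in 9 cells where 3.52 were given (2.55, 1.17 to 4.85) and with *Gpnmb* in 4 where 0.771 were given (5.19, 1.41 to 13.3). With all UMIs all 17 *Arg1* cells of the class held *Trem2*, and 6 of them *Gpnmb*. *Ly6c2* and *Arg1* were found together in 1 cell where 3.96 were given (0.25, 0.01 to 1.41), an interval that includes 1. *Mrc1* and *Cd163* were found together in 7 cells with all UMIs where 1.90 were given (3.68, 1.48 to 7.59). Pairs that differ in their share between sub-clusters or libraries would also depart from the product when pooled.

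The cells with most *Arg1*, most *Gpnmb* and most *Trem2* were 3 different cells. The cell with most *Arg1* (172 UMIs) held 11 *Gpnmb*, 30 *Fn1*, 24 *Nos2* and 146 *Spp1* UMIs, *Nos2* being the arginine-using enzyme of inflammatory macrophages and *Spp1* osteopontin. The cell with most *Gpnmb* (48 UMIs) held 0 *Arg1*, 1 *Ly6c2*, 10 *F13a1* and 460 *Spp1* UMIs. The cell with most *Trem2* (53 UMIs) held 1 *Arg1*, 2 *Gpnmb*, 199 *Fn1* and 740 *Spp1* UMIs. In the order given, these 3 cells held 37, 79 and 26 UMIs of osteoclast markers among 23861, 18204 and 41335 UMIs. The cell second in *Gpnmb* (33 UMIs) held 42 among 10322, and 0 *Arg1* UMIs. The part of osteoclast-like cells in the *Gpnmb* level was not tested. Other cells with high *Gpnmb* also held *Arg1*, 1 with 17 *Gpnmb* and 28 *Arg1* UMIs and 1 with 9 *Gpnmb* and 50 *Arg1* UMIs.

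Across cell classes most UMIs of *F13a1*, *Trem2* and *Mrc1* were in macrophage-like cells, and those of *Apoe* and *Fn1* were not. Macrophage-like cells held 92.4% of the *F13a1* UMIs in LIP and 99.2% in control, 97.8% and 100% of *Trem2*, and 90.1% and 88.4% of *Mrc1*. The remaining *Mrc1* was mainly in lymphatic endothelial-like cells, at 107 CPM in the 5 LIP cells and 86.8 CPM in the 19 control cells. *Arg1* was also in secretory-like cells, led by *Tff2* and the mucin gene *Muc5b*, at 130 CPM in 11 LIP cells and 120 CPM in 16 control cells (log2 ratio 0.11, -0.46 to 0.66), so the gene was found in both libraries outside macrophage-like cells. *Gpnmb* was in osteogenic-like cells at 47.1 and 75.7 CPM (-0.69, -1.15 to -0.23), and in epithelial-like cells it was at least 2-fold lower in LIP (9 against 82 UMIs, -1.77, -2.95 to -0.77), where 1.57% of 9254 genes were.

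**Figure D4:**
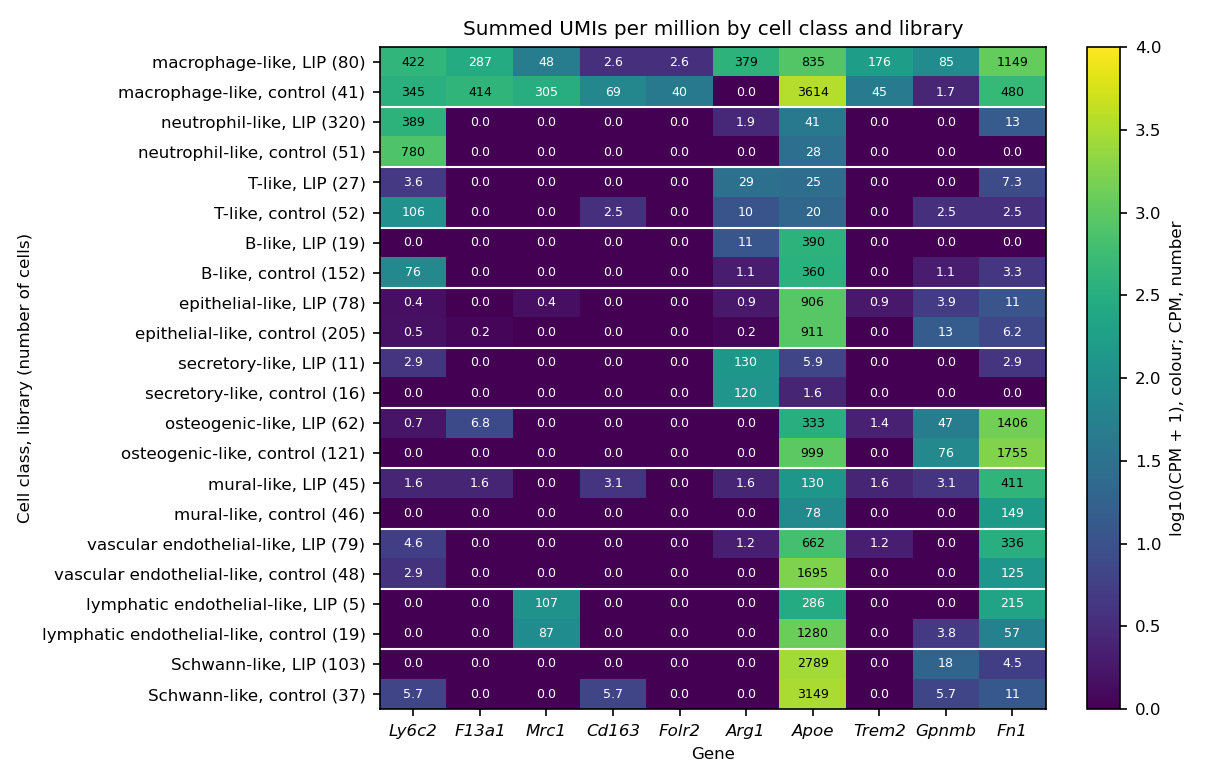
CPM of each gene (columns) in each cell class and library (rows, with the number of cells), with colour as log10(CPM + 1). *F13a1* and *Trem2* are high in macrophage-like rows and at 6.82 CPM or less in the other rows drawn, *Ly6c2* is also high in neutrophil-like rows, and *Apoe* and *Fn1* are high in several tissue classes.

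*Ly6c2* in neutrophil-like cells was at 389 CPM in LIP and 780 CPM in control, a log2 ratio at the 2-fold limit (-1.20 to -0.81), where 3.24% of 3113 genes were at least 2-fold lower. It was in the neutrophil sub-cluster led by *Retnlg* at 873 and 937 CPM (-0.10, -0.30 to 0.10). That sub-cluster held 62 of 320 neutrophil-like cells in LIP and 29 of 51 in control, and in the remaining Ccl3-led cells the level was 34.0 and 64.5 CPM. Lymphoid-like cells had 1 *Ly6c2* UMI in 46 LIP cells and 111 UMIs in 10 of 204 control cells. *Ly6c1* is uncertain to be told from it by reads, as the longest transcripts of the pair were identical at 802 of 844 aligned positions and 93.5% identical over the last 300 bases, where reads of a 3′ kit start. The counts of the pair were high in different classes, however. Vascular endothelial-like cells had *Ly6c1* at 2110 and 2927 CPM and *Ly6c2* at 4.61 and 2.90 CPM, and macrophage-like cells had *Ly6c1* at 3.29 and 1.73 CPM.

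*Fn1* was at 1406 CPM in osteogenic-like cells of LIP and 1755 CPM in control (-0.32, -0.41 to -0.23). It was at least 2-fold higher in LIP in mural-like cells (411 against 149 CPM, 1.46, 1.11 to 1.83), where 3.87% of 3750 genes were, and in vascular endothelial-like cells (336 against 125 CPM, 1.43, 0.97 to 1.93), where 5.32% of 4057 genes were. *Apoe* was at least 2-fold lower in LIP in vascular endothelial-like cells (662 against 1695 CPM, -1.36, -1.52 to -1.19), where 3.11% of genes were, and in osteogenic-like cells (333 against 999 CPM, -1.58, -1.74 to -1.43), where 5.81% of 6710 genes were. It was within 2-fold in epithelial-like cells (906 against 911 CPM) or Schwann-like cells (2789 against 3149 CPM).

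Further genes of the same programmes were counted in macrophage-like cells by lists chosen with earlier results of these data known. Of 4931 genes tested 396 were higher and 172 lower, with a median log2 ratio of 0.06. Of 10 monocyte genes 3 were higher and 1 lower (median -0.43). Of these 3, *Vcan* reached the minimum of UMIs only through LIP, with 19 UMIs in control. *Vcan*, a matrix proteoglycan (2.22), and *Hp*, haptoglobin (2.01), were highest, and *Cx3cr1*, the fractalkine receptor (-0.88), and *Chil3*, a chitinase-like protein (-2.49), lowest. Of 10 resident genes tested, 9 were lower and 0 higher (median -2.40). *Clec10a* (0.32) and the platelet factor gene *Pf4* (-1.29) were highest. The chemokine gene *Ccl8* and the lectin gene *Cd209f* were lowest, with 132 and 86 UMIs in control and 0 in LIP, which is at least 116-fold and 75.4-fold lower. All 132 *Ccl8* UMIs were in the 2 Saa3-led control cells, which also held 180 of the 392 control UMIs of *Selenop* and 139 of the 254 of *Pf4*, and all 86 *Cd209f* UMIs were in Mfge8-led control cells.

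Of 17 repair and lipid-handling genes 9 were higher and 0 lower (median 1.20). Of these 9, *Spp1*, *Vegfa*, *Abca1* and *Abcg1* reached the minimum of UMIs only through LIP, with 10, 12, 22 and 13 UMIs in control. The other higher genes of this list reached it in control as well. *Spp1* was highest, at 2183 CPM in LIP and 17.3 in control (6.98), followed by the fatty acid binding gene *Fabp5* (2.75), while the adaptor gene *Tyrobp* (-0.07) and the lysosomal lipase gene *Lipa* (-0.17) were lowest. Of 14 inflammatory genes 10 were higher and 0 lower (median 2.22). Of these 10, *Saa3*, *Cxcl3*, *Nos2*, *Acod1*, *Clec4e*, *Il1a* and *Cxcl1* reached the minimum of UMIs only through LIP. In control they had 0, 0, 0, 1, 40, 20 and 37 UMIs. *Ptgs2*, *Il1b* and *Cxcl2* reached it in control as well. The counts of higher genes in these lists are therefore descriptive only. The acute-phase gene *Saa3* and the chemokine gene *Cxcl3* had 8652 and 1777 UMIs in LIP and 0 in control, at least 1096-fold and 225-fold higher, while *Ccl4* (0.15) and *Il6* (0.05) were lowest. Of 7 antigen presentation genes 6 were lower (median -1.13), with the transactivator gene *Ciita* (-0.52) and *H2-DMb1* (387 against 775 CPM) highest and *H2-Aa* (-1.25) and the invariant chain gene *Cd74* (-1.27) lowest. Of the monocyte attractants only 3 had enough UMIs, *Ccl2* (0.49), *Ccl7* (0.16) and *Ccl12* (-1.73), and *Ccl12* alone passed 2-fold. These counts depended on which sub-clusters were summed. The Saa3-led LIP cells held 8633 of the *Saa3*, 3233 of 3314 *Spp1* and 1768 of the *Cxcl3* UMIs of LIP. In the Mfge8-led cells the inflammatory genes went both ways. *Ccl3* (-1.10) and *Ccl4* (-1.81) were at least 2-fold lower in LIP, and *Il1b* (1.22) was at least 2-fold higher. Below the minimum of UMIs, *Il1a* (-1.62, 10 UMIs in LIP and 20 in control) and *Il6* (10 and 16) were lower in LIP. Also below it, *Clec4e* (36 and 0) and *Saa3* (16 and 0) were higher in LIP. None of the 7 antigen presentation genes was 2-fold lower in the Mfge8-led cells, where *Cd74* (-0.66) was lowest and *Ciita* (0.21) highest. In the Chil3-led cells *H2-Aa* had 277 UMIs in LIP and 1 in control (6.85, 4.36 to 12.2) and *Cd74* 764 and 34 (3.22, 2.73 to 3.76), higher in LIP.

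Over 17 sums of a class and a library with at least 20 cells, the genes with the most similar levels were *Mmp12*, *C1qa* and *Tifab* for *F13a1* (Pearson r of log2(CPM + 10) from 0.997 to 0.994), *Clec4b1*, *Ccl12* and *Cox6a2* for *Mrc1* (0.999 to 0.994) and *Fcgr1*, *Msr1* and *C3ar1* for *Trem2* (0.995 to 0.985). For *Ly6c2* they were *Il17ra*, *Cybb* and *Evi2* (0.972 to 0.965), for *Arg1* *Atp6v0d2*, *Il12b* and *Dcdc2a* (0.953 to 0.924) and for *Fn1* *Fam102b*, *Lpl* and *Ecm1* (0.935 to 0.910). For *Cd163* they were *H2-M5*, *Lyz1* and the mast cell gene *Cpa3* (0.966 to 0.963), and for *Folr2* *H2-M5*, *Ccl22* and *Fcrls* (0.999 to 0.992), from 48 and 27 UMIs. For *Apoe* they were *Ccnd1*, *Zfp282* and *P2rx7* (0.872 to 0.849), and for *Gpnmb* *Ptges*, *Pdpn* and *Bdh2* (0.887 to 0.851). The sums share 2 libraries, and where only the macrophage-like sums are high a gene needs little else in common to give a high r.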

How the data were processed

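Live cells of the periodontal tissue were sequenced with the 10x Genomics 3′ v3 chemistry in 2 libraries. The authors aligned reads to mm10 with Cell Ranger (3.1.0 in the matrix headers) and deposited raw UMI counts of 31053 genes per barcode, without normalization. Barcodes with 200 to 7500 genes, at most 60000 UMIs and at most 10% mitochondrial UMIs were kept (936 of 1212 in LIP, 883 of 1169 in control), at medians of 5595 and 10845 UMIs.

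Seurat 5.3.0 (R 4.3.3) served to integrate both libraries and to cluster the cells (2000 variable features, 30 dimensions, resolution 0.1, sub-clusters at 0.2) with the 10 genes and the listed state genes left out of the features. A cluster took the class with most markers among its 10 leading genes, ties going to the class with most markers found in at least 25% of its cells and over 2-fold above the rest (10 CPM added), and needed 3 such markers. Class names were rebuilt here and may differ from those of the study. Unnamed were 98 LIP and 83 control cells, among them a low-UMI neighbour of the macrophage-like cells (52 LIP, 24 control) and cycling cells (12 LIP, 38 control). Scrublet (scanpy 1.11.5) marked 1 LIP and 4 control barcodes, too few to rely on, which were kept.

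UMIs were summed per class and library and given as CPM. Ratios of LIP over control carry exact conditional intervals, levels Poisson and shares Clopper-Pearson intervals at 95%. For pairs of genes, the Poisson interval of the number of cells with both was divided by the number given by the product. That number was taken as fixed, so its own error is left out and an upper limit can exceed what the shares allow. A ratio with a sum of 0 was taken against a floor of 3 counts over the group. Cells were thinned to 1000 UMIs for shares and to 5000 for pairs of genes by 1 random draw per cell, and shallower cells were left out (5 LIP and 7 control at 5000). A gene counted as higher or lower at 2-fold with at least 50 UMIs over both libraries, and no test was made, as each group has 1 library. Python 3.11.15, numpy 2.4.6, scipy 1.17.1, pandas 2.3.3 and matplotlib 3.10.9 were used. Only the ratios and the counts of pairs were tested on simulated data, the pairs in cells without sub-clusters.

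Named are the 10 genes, the 2 highest and 2 lowest genes of each of 6 lists, the 3 most similar genes, the 10 leading genes of each sub-cluster, *Ly6c1*, and single genes in named cells, which were chosen after their values were seen. The genes and lists were chosen with earlier results of these data known. Alternatives were 13 planned and 4 added after seeing the data.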

Additional observations from a re-analysis of the deposited data

Results flagged for a closer look

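Barcodes outside the quality limits (276 in LIP, 286 in control), which enter no comparison above, held UMIs of 9 of the 10 genes. *Ly6c2* was at 70.2 CPM in LIP and 41.4 CPM in control, *F13a1* at 15.2 and 0.326 CPM (56 UMIs against 1), *Trem2* at 3.26 CPM and 0 (12 UMIs against 0) and *Fn1* at 321 and 63.9 CPM. *Mrc1* was lower in LIP, at 0.272 and 2.28 CPM (1 UMI against 7, log2 ratio -3.07, -8.56 to -0.11), and *Apoe* was at 218 and 223 CPM. Among all 14471 genes with over 3 UMIs in these barcodes of either library, the same comparison was higher in LIP for 29.2% and lower for 9.43%, by intervals that exclude equal levels or against a floor of 3 counts.

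*Gpnmb* went in opposite directions in 2 classes. Its log2 ratio of LIP over control was 5.62 in macrophage-like cells and -1.77 in epithelial-like cells. The latter rested on 9 UMIs (3.95 CPM) in LIP and 82 UMIs (13.4 CPM) in control. The difference between the classes was not tested.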

How the results depend on the processing

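The same 4 genes were at least 2-fold higher and the same 2 lower in LIP under each planned setting, except that a minimum of 20 UMIs gave 4 lower genes (with *Cd163* and *Folr2*). The settings of thinning depth could not move these genes. A resolution of 0.3 and leaving out the Scrublet barcodes gave the same ratios as the main setting. The log2 ratios over the planned settings ran from -2.77 to -1.19 for *Apoe*, -2.96 to -2.04 for *Mrc1*, 1.39 to 2.27 for *Trem2*, 1.08 to 1.54 for *Fn1* and 3.38 to 5.74 for *Gpnmb*. They ran from 0.00 to 0.42 for *Ly6c2* and -0.77 to -0.07 for *F13a1*, and none of these changed sign. Cells picked one by one from markers made macrophage-like cells 5.98% of LIP and 3.28% of control cells. At 2000 UMIs per cell *F13a1* with a resident gene came to 0 of the number given by the product in LIP and 0.414 over both libraries, and the cause was not tested. *Ly6c2* with a resident gene stayed at 0 in each thinned setting, though a cell kept the same draw at a given depth.

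In alternatives chosen after seeing the data, leaving out the Mfge8-led cells gave 2 higher and 4 lower genes, with the class at 5.24% of LIP and 1.25% of control cells. Leaving out the Saa3-led cells gave 1 higher gene and 5.02% of LIP cells. Leaving out the 3 control cells with *Folr2* gave 1 lower gene. Leaving out the 4 cells rich in mast or osteoclast markers left the same genes past 2-fold. The 2 LIP cells among them held 3 of 576 *Arg1* and 0 of 129 *Gpnmb* UMIs, so this setting could hardly move these genes. Saa3-led cells with osteoclast-marker UMIs stayed in, and their part was not tested.

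No paired analysis was possible because each group has 1 library, and for the same reason leaving out a replicate was not possible.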

Other observations

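Among unnamed cells, the low-UMI cells led by *BC037156* and *Sprr2d* (34 in LIP, median 1778 UMIs) held 97 UMIs of *Arg1* in 6 cells, 60 of them in 1 cell. The cycling cells led by *Hist1h2ap* held 99 *Ly6c2* UMIs in 2 of 12 LIP cells and 151 in 7 of 38 control cells, and 132 *Fn1* UMIs in 6 LIP cells. These cells are in no comparison above.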
